A study of Mus musculus with 32 samples.

Results

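The 9 genes described here encode factors that store maternal mRNA in the oocyte or remove it around fertilisation: Btg4, Cnot6l, Cnot7, Zfp36l2, Pabpn1l, Zar1, Zar1l, Ybx2 and Cpeb1. They were listed by symbol, with earlier results of these data known, and all 9 were found among the 55335 genes of the count tables by their Ensembl identifiers in the mouse annotation of the mm10 build. RNA was counted in 32 mouse libraries, 16 groups of 2 replicates. Growing oocytes were taken from females at postnatal day 14 and carried in both groups a transgene for histone H3.3, either wild type (H3.3WT) or with lysine 4 changed to methionine (H3.3K4M); the promoter of the transgene is not given in the sources used here. All other groups were wild type. Metaphase II (MII) oocytes came from females of 8 weeks or 12 months and were untreated. The 2-cell and 4-cell embryos, named by their titles as products of in vitro fertilisation, came from females of 6 to 8 weeks and were cultured in KSOM medium with aphidicolin, which blocks DNA replication, cycloheximide, which blocks translation, MG132, which blocks the proteasome, or the vehicle DMSO; a further 2-cell group came from 12-month females and is labelled as untreated, so that its age and the absence of vehicle cannot be told apart. AB2.2 embryonic stem cells, 1 cell line, received cycloheximide, MG132 or DMSO. The titles of the stem cell libraries carry the word Long, which is not explained; no dose or exposure time is given in the sources used here.

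A fully grown oocyte stops transcription and lives on mRNA made during growth. Storage proteins keep part of this mRNA silent with a short poly(A) tail, and cytoplasmic polyadenylation, directed by sequence elements near the 3′ end that CPEB1 binds, switches it on during meiotic maturation. The CCR4-NOT complex then shortens tails and starts the clearance of maternal mRNA, which in the mouse is completed after the embryo's own genome becomes active at the 2-cell stage. BTG4 recruits the catalytic subunits CNOT7 and CNOT6L of that complex, ZFP36L2 is a zinc-finger protein that brings the complex to AU-rich mRNA, PABPN1L is a nuclear poly(A)-binding protein relative of the oocyte cytoplasm, ZAR1, ZAR1L and YBX2 (MSY2) bind stored mRNA, and CPEB1 controls tail length.

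Since these genes are themselves maternal mRNAs whose tails can be controlled by such elements, a stretch of 30 bases at or near the 3′ end of 8 of them, around such an element or the polyadenylation hexamer, is shown, taken from the GENCODE M21 reference on GRCm38 (mm10), 1 principal transcript per gene. Capitals mark the cytoplasmic polyadenylation element TTTTAT in Btg4, Cnot7 and Ybx2, and the hexamer AATAAA or, in Pabpn1l, ATTAAA. In Zar1l, whose annotated 3′ UTR has 14 bases, the stretch reaches into the coding sequence and the capitals begin there; the other 7 stretches lie in 3′ UTRs. All are written 5′ to 3′ on the strand of the transcript.
Btg4, chr9:51119797-51119826, plus strand: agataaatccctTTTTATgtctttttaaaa
Cnot6l, chr5:96070340-96070369, minus strand: ttccctgtaggcAATAAAtggccattttgc
Cnot7, chr8:40493036-40493065, minus strand: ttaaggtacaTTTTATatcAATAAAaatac
Zfp36l2, chr17:84183931-84183960, minus strand: tttgtagtttcccccAATAAAattttttgg
Pabpn1l, chr8:122619473-122619502, minus strand: agaatgtaaattATTAAActtgaatatatt
Zar1, chr5:72577117-72577146, minus strand: ataaagcctgtgAATAAAaggtattgcaaa
Zar1l, chr5:150507056-150507085, minus strand: tcttcagcttaaAATAAAccttgtgacagt
Ybx2, chr11:69941532-69941561, plus strand: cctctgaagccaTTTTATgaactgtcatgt
On the sense strand of the last 150 bases of the 3′ UTR (146 in Zar1 and 14 in Zar1l), the elements TTTTAT and TTTTAAT, which were counted separately, were found 3 times in Cnot7, 2 times in Btg4 and 1 time in Ybx2, always as TTTTAT, and not in the other 6 genes. Of the 18284 protein-coding genes with at least 150 bases of 3′ UTR, 23.4% held at least 1 of these elements in the same window. In Cnot7, 3 bases separate the last element from the hexamer. Within the scanned 3′ UTR, a hexamer stood in the last 50 bases in 6 of the 9 genes, against 75.9% of the 18284. None stood at the annotated ends of Btg4 and Ybx2. The hexamer of Zar1l ends 13 bases before the transcript end but begins in the coding sequence, so it was not counted. The AU-rich core TATTTAT, which 6.21% of the 18284 held, was found in Cnot7 alone. A match describes the annotated end only.

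Library totals ranged from 14313718 to 34713159 counts. Levels are given in CPM, counts relative to the library total and scaled by TMM over all 32 libraries, as the values of replicate 1 and replicate 2; the scaling factors ran from 0.504 in growing oocytes to 1.90 in stem cells with MG132, so levels set across stages depend on them. The Smart-seq2 method served for all oocytes and embryos and a TruSeq kit after oligo-dT capture for the stem cells, so kit and cell system cannot be told apart. Changes are log2 fold changes with standard errors from edgeR's quasi-likelihood test, and calls are made at a Benjamini-Hochberg adjusted p under 0.05 over all genes tested. Nothing says that replicates came from separate animals, clutches or cultures, and p values therefore reflect only the scatter among these libraries, possibly technical. Where the libraries of 2 groups are said to overlap or not, this describes the values shown. The share of all genes without overlap was not counted. Both kits select poly(A) RNA, so a change in the amount of an mRNA and a change in its tail cannot be told apart, nor can fewer cells and less RNA per cell. The 8 oocyte markers checked summed to 27870 to 77040 CPM in the oocyte libraries and 3.76 to 5.47 CPM in stem cells, and the 7 stem cell markers to 2222 to 2660 CPM in stem cells. The 6 markers of the 2-cell stage all passed 1 CPM in vehicle 2-cell embryos, at 894 to 1218 CPM in sum. Their sum in MII oocytes was 451 to 620.5 CPM, mostly from Tcstv1 with 389.8 to 519.9 CPM. The sum is therefore not particular to the 2-cell stage. The 12 cumulus and granulosa markers summed to 123 to 183 CPM in MII oocytes. Cyp19a1 made up most of this, with 81.0 and 118 CPM at 8 weeks and 112 and 126 at 12 months. Gja1 had 47.5 and 0.168 CPM at 8 weeks and 33.6 and 14.3 at 12 months. Amh and Amhr2 were at 0 in all 4 libraries. From 2 to 6 of the 12 passed 1 CPM at 8 weeks and 6 to 8 at 12 months. The part of these values was not tested.

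The factors fell into different orders of abundance at each stage. Per kilobase of exon, Btg4 was the most abundant of the 9 in MII oocytes of 8-week females, at a mean of 4439 CPM per kb and above 99.9% of genes, followed by Cnot7 (285), Pabpn1l (159), Cnot6l (99.2), Zar1 (48.4), Zar1l (37.5), Cpeb1 (22.9), Ybx2 (2.77) and Zfp36l2 (0.469). Pabpn1l had no fixed place in that order, since its 2 libraries held 33.8 and 346 CPM. In H3.3WT growing oocytes the order began with Btg4 (1604 CPM per kb), Zar1l (722), Pabpn1l (353) and Cpeb1 (101.4), and Cnot6l (14.4) and Cnot7 stood level near its end. In vehicle 2-cell embryos Btg4 (2645 CPM per kb), Cnot7 (159) and Cnot6l (79.0) led, ahead of Ybx2 (22.1) and Zar1l (14.7). In vehicle 4-cell embryos the highest were Cnot7 (13.3 CPM per kb) and Btg4 (9.95), and Zar1 was at 0. In stem cells with DMSO Zfp36l2 (6.72 CPM per kb) and Cnot7 (5.09) led; Btg4, Pabpn1l, Zar1 and Zar1l did not exceed 0.0742 CPM in any stem cell library.

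**Figure D1:**
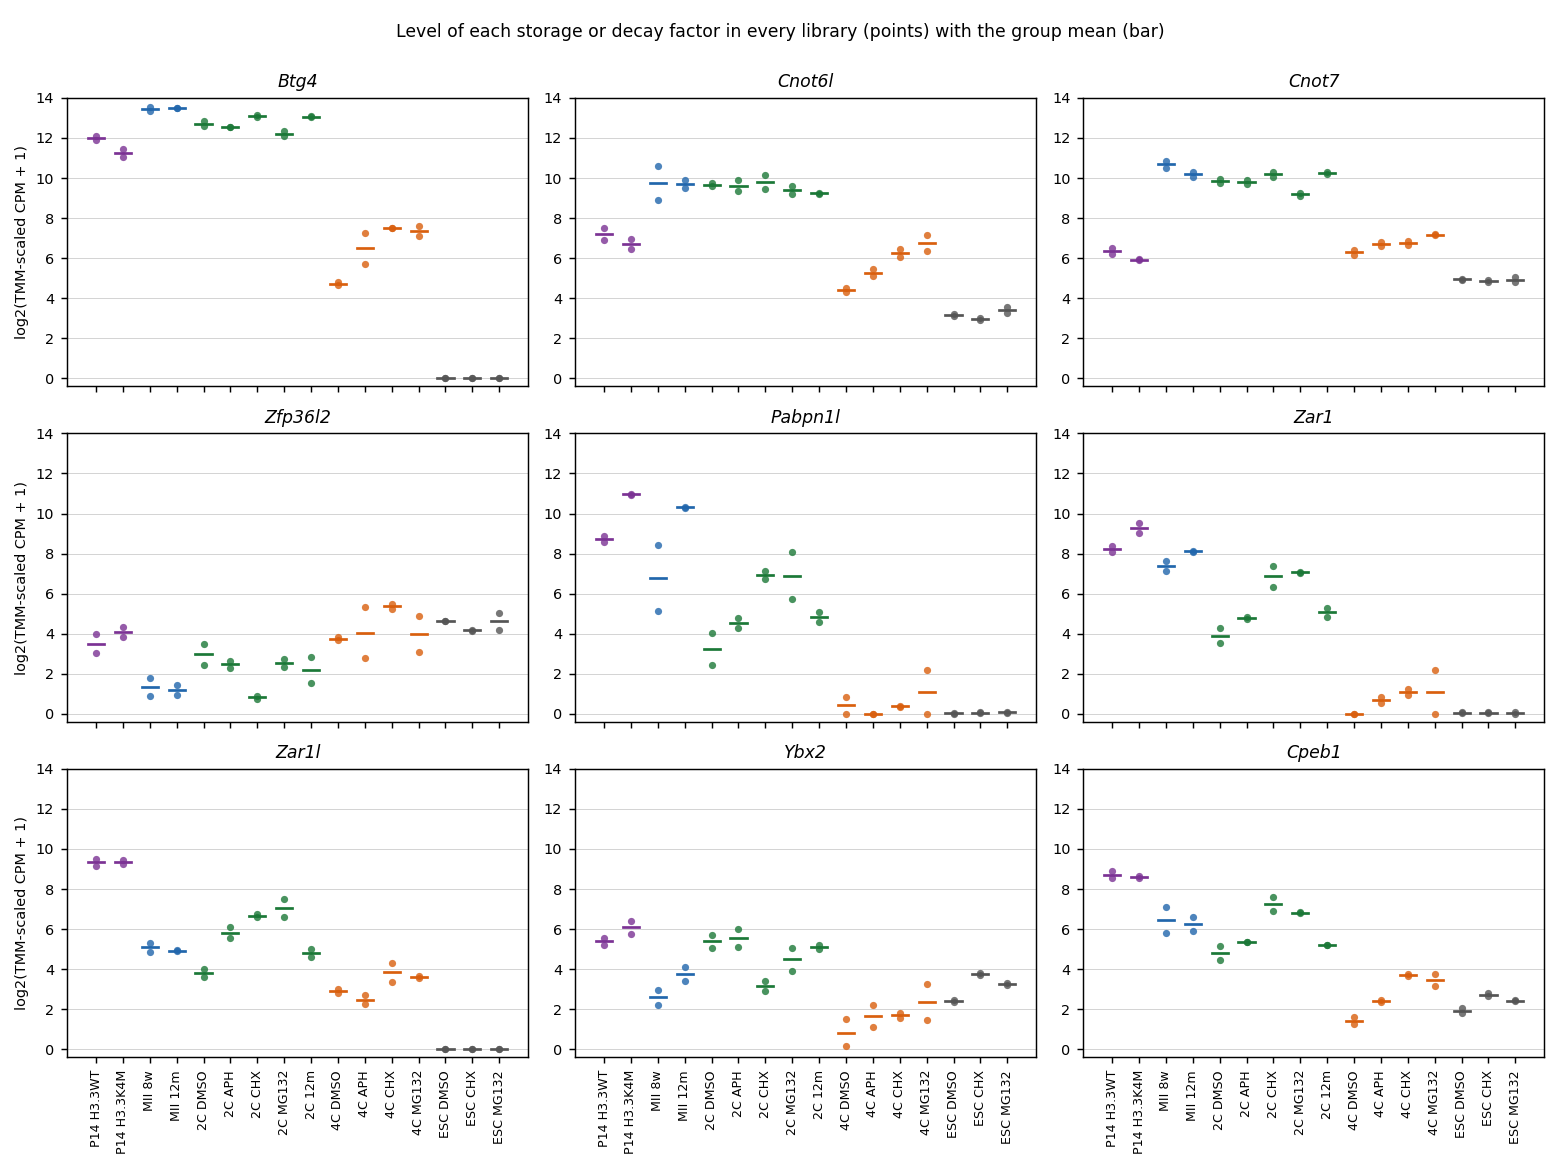
Level of each of the 9 genes in every library (points) as log2(TMM-scaled CPM + 1), with the mean of the 2 log values of each group as a bar; the horizontal axis names the 16 groups. Btg4, Cnot6l and Cnot7 are high in MII oocytes and 2-cell embryos and low at 4 cells, while Zar1l and Cpeb1 are highest in growing oocytes.

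Between growing and MII oocytes Btg4, Cnot6l and Cnot7 rose, and Zar1, Zar1l, Ybx2, Cpeb1 and Zfp36l2 fell. Of the 9 genes, 3 were higher and 5 lower in MII oocytes of 8-week females than in H3.3WT growing oocytes, in a comparison in which 61.8% of all genes tested were called, 27.4% higher and 34.4% lower; the growing oocytes carried the transgene and the MII oocytes did not, so that genotype, the age of the female and the stage cannot be told apart. Cnot7 had 90.3 and 72.3 CPM in growing oocytes and 1470.1 and 1847 CPM in MII oocytes (log2 fold change 4.36 ± 0.25, 20.6-fold, adjusted p = 8.5e-06). Cnot6l had 180.4 and 117 CPM before and 1576 and 471 CPM after, and both MII libraries exceeded both growing ones although they differed between themselves (2.78 ± 0.52, adjusted p = 0.0019). Btg4 was already among the most abundant mRNAs of growing oocytes, at 3778 and 4422 CPM, and reached 10597 and 12096 CPM (1.48 ± 0.24, adjusted p = 0.00082). All 3 genes of the deadenylase arm were higher in every MII library than in any growing one, which adds no test to their calls. The share of all genes separated in this way was not counted.

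Among the storage factors, Zar1l fell from 571 and 722 CPM to 38.9 and 28.3 CPM (-4.26 ± 0.27, 19.2-fold, adjusted p = 1.2e-05). Ybx2 fell from 46.3 and 35.7 CPM to 3.63 and 6.83 CPM (-2.96 ± 0.42, adjusted p = 0.00044). Cpeb1 fell from 477 and 374 CPM to 136 and 55.6 CPM (-2.14 ± 0.41, adjusted p = 0.0022). None of these 3 genes overlapped between the groups. Zar1 changed least of the called genes, from 327 and 268 CPM to 195 and 141 CPM (-0.82 ± 0.25, adjusted p = 0.019), and lost its call without H3.3WT replicate 1, with library totals in place of scaling factors, and in a fit of these groups alone. Zfp36l2, the AU-rich decay factor, was low in both and fell from 14.7 and 7.07 CPM to 2.47 and 0.840 CPM (-2.70 ± 0.59, adjusted p = 0.0043). Pabpn1l was not called (-1.13 ± 0.78, adjusted p = 0.24), with 380.4 and 463 CPM before against 33.8 and 346 CPM after; without MII 8-week replicate 2 it was called lower at -3.68 (adjusted p = 5.0e-06). The median of all genes in this comparison was -0.26, and the direction of each of the 8 called genes was the same with library totals.

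**Figure D2:**
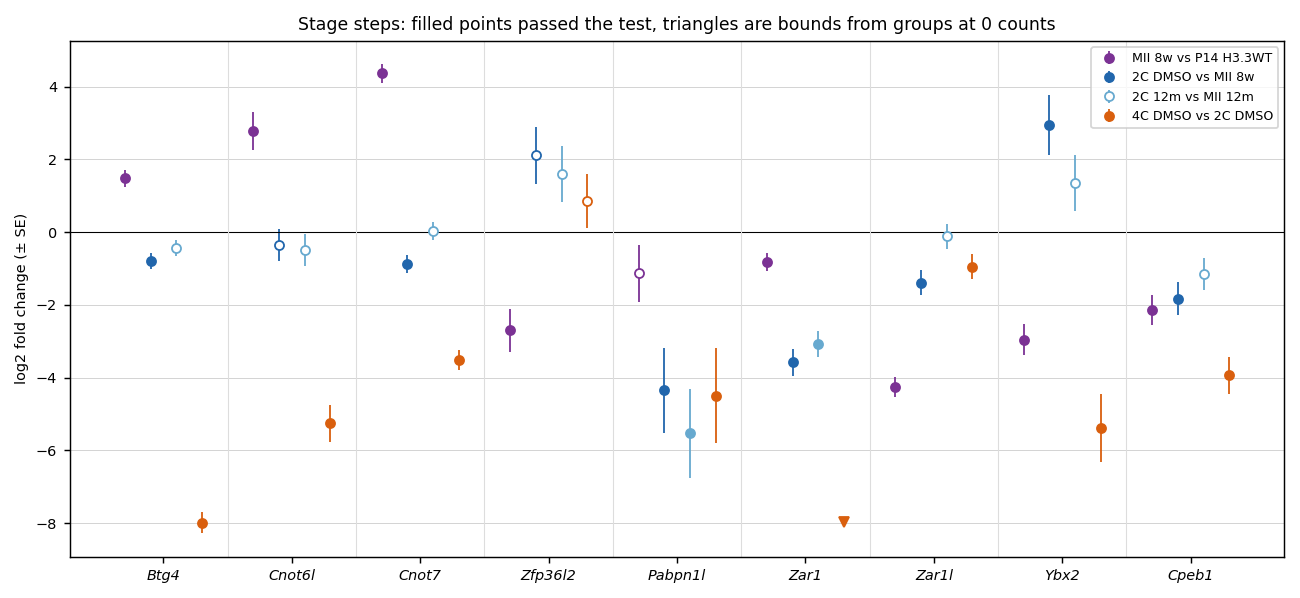
Log2 fold change with standard error of each of the 9 genes for the steps from H3.3WT growing oocyte to MII oocyte, from MII oocyte to 2-cell embryo in young (vehicle) and 12-month (untreated) females, and from 2-cell to 4-cell vehicle embryo; filled points are called and the triangle is the bound for Zar1, at 0 counts at 4 cells. Btg4, Cnot6l and Cnot7 rise in the first step, and 8 of the 9 genes fall in the last one, Btg4 at -7.98.

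From MII oocytes of 8-week females to vehicle 2-cell embryos, Zar1 and Pabpn1l fell most and Ybx2 rose. In this step 6 of the 9 genes were called lower and 1 higher, where 20.2% of all genes were called, 10.1% higher and 10.1% lower, and their median was 0.33. Zar1 fell from 195 and 141 CPM to 10.5 and 18.4 CPM (-3.58 ± 0.37, 11.9-fold, adjusted p = 0.00032), a call that held in 12 of 12 alternative settings. Pabpn1l fell from 33.8 and 346 CPM to 4.38 and 15.2 CPM (-4.35 ± 1.16, adjusted p = 0.026); it did not overlap, but the call was lost without 2-cell DMSO replicate 1 or MII 8-week replicate 2. Cpeb1 fell from 136 and 55.6 CPM to 34.1 and 21.1 CPM (-1.82 ± 0.46, adjusted p = 0.020), and Zar1l from 38.9 and 28.3 CPM to 11.2 and 15.1 CPM (-1.39 ± 0.35, adjusted p = 0.019). Both lost their calls when either 2-cell DMSO library or MII 8-week replicate 1 was left out, and with library totals; Zar1l also lost its call with library sizes from genes only and in a fit of these groups alone.

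Over the same step Btg4 and Cnot7 were called lower, and Cnot6l was not called. Btg4 had 6176 and 7346 CPM at 2 cells against 10597 and 12096 CPM in MII oocytes (-0.79 ± 0.22, adjusted p = 0.029). With library totals in place of TMM factors its value was 0.02 and the median of all genes moved from 0.33 to 1.14, so its direction depends on the scaling. Cnot7 had 855 and 1000.5 CPM against 1470.1 and 1847 CPM (-0.88 ± 0.24, adjusted p = 0.029) and came to -0.06 with library totals. Both calls were also lost without either 2-cell DMSO library or MII 8-week replicate 2, with library sizes from genes only, with a filter of 5 CPM and in a fit of these groups alone. Cnot6l had 865 and 765 CPM, between the 2 MII values (-0.35 ± 0.43, adjusted p = 0.59), and was called lower without MII 8-week replicate 2 (-0.97; adjusted p = 0.032).

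Ybx2 went the other way. It had 32.3 and 51.1 CPM at 2 cells against 3.63 and 6.83 CPM in MII oocytes (2.95 ± 0.82, 7.70-fold, adjusted p = 0.031), without overlap; the call was lost without 2-cell DMSO replicate 2 or either MII 8-week library. Its 2-cell values overlapped those of H3.3WT growing oocytes, 46.3 and 35.7 CPM. Zfp36l2 also had higher values at 2 cells, 10.2 and 4.45 CPM against 2.47 and 0.840 CPM, and was not called (2.11 ± 0.78, adjusted p = 0.084). DESeq2 called it (2.13; adjusted p = 0.034), as did fits without the low-count filter, with a filter of 5 CPM and with library totals.

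The same step in 12-month females, from MII oocytes to untreated 2-cell embryos, called 2 of the 9 genes, both lower, with 12.6% of all genes called, 5.8% higher and 6.76% lower, and a median of 0.19. Pabpn1l fell from 1257 and 1284 CPM to 33.1 and 22.6 CPM (-5.53 ± 1.22, adjusted p = 0.016), a call lost without either 2-cell library. Zar1 fell from 274 CPM in each oocyte library to 27.7 and 37.7 CPM (-3.08 ± 0.36, adjusted p = 0.00092). Btg4 had 11386 and 11560.1 CPM in oocytes and 8881 and 8352 CPM in embryos (-0.43 ± 0.22, adjusted p = 0.24). The difference between the 2 ages in this step was tested for each gene and called for 0 of the 9. Of all genes 0.0174% were called, 0.00436% upward and 0.0131% downward. At an unadjusted p under 0.05 there were 2 of the 9 and 1712 of all 22954 genes. These 2 were Cnot7 (0.92 ± 0.34, adjusted p = 0.60) and Zar1l (1.28 ± 0.48, adjusted p = 0.60). DESeq2 called 0 of the 9 and 223 of all genes.

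Between the vehicle 2-cell and 4-cell stages the whole maternal set except Zfp36l2 was lower. Of the 9 genes, 8 were called lower and none higher, where 49% of all genes were called, 19.6% higher and 29.4% lower, and their median was -0.57. Btg4 fell from 6176 and 7346 CPM to 27.0 and 23.9 CPM (-7.98 ± 0.29, 253-fold, adjusted p = 5.7e-07). Cnot6l fell from 865 and 765 CPM to 22.0 and 18.6 CPM (-5.26 ± 0.52, adjusted p = 2.6e-05). Cnot7, which other cells also express, fell from 855 and 1000.5 CPM to 85.3 and 69.2 CPM (-3.51 ± 0.27, adjusted p = 5.8e-06). Every 4-cell library was far below every 2-cell library for these 3 genes, and each call held in 12 of 12 alternatives.

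The storage factors were low at 4 cells. Zar1 had 898 counts over the 2 vehicle 2-cell libraries and 0 over the 4-cell ones, at least 249-fold lower when the 4-cell group is set to 3 counts over the group, a bound that covers counting error only (adjusted p = 5.3e-06). Ybx2 fell from 32.3 and 51.1 CPM to 1.80 and 0.111 CPM (-5.38 ± 0.93, adjusted p = 0.00094), and Cpeb1 from 34.1 and 21.1 CPM to 1.42 and 2.01 CPM (-3.93 ± 0.51, adjusted p = 0.00015). Pabpn1l had 0 and 0.817 CPM at 4 cells against 4.38 and 15.2 CPM (-4.49 ± 1.30, adjusted p = 0.016). Its call was lost without 2-cell DMSO replicate 2 or 4-cell DMSO replicate 1, and in a fit of these groups alone. Zar1l fell least, from 11.2 and 15.1 CPM to 6.93 and 6.02 CPM (-0.95 ± 0.35, adjusted p = 0.043), and kept its call in only 4 of 12 alternatives. It lost the call without 2-cell DMSO replicate 2 or either 4-cell DMSO library. The call was also lost with the replicate block, DESeq2 size factors, the DESeq2 test, no low-count filter and these groups alone. Zfp36l2 had 12.0 and 13.1 CPM at 4 cells against 10.2 and 4.45 CPM (0.85 ± 0.74, adjusted p = 0.36). The 8 oocyte markers, beside these genes, summed to 4138 to 4640 CPM at 2 cells and 132 to 136 CPM at 4 cells with vehicle.

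At the 2-cell stage Zar1, Zar1l, Pabpn1l and Cpeb1 were higher with cycloheximide and with MG132, and Ybx2 and Zfp36l2 lower with cycloheximide. The 3 drug groups were compared with the same 2 DMSO libraries, so their values are given side by side. With cycloheximide 6 of the 9 genes were called, 4 higher and 2 lower, where 24% of all genes were called, 11% higher and 13% lower, with a median of -0.26. With MG132 4 of the 9 were called, all higher, where 9.77% were called, 5.1% higher and 4.68% lower. With aphidicolin 0 of the 9 were called, where 0.201% of all genes were, 0.00893% higher and 0.192% lower. Zar1 and Zar1l, 2 of the 9, had an unadjusted p under 0.05, as did 2293 of all 22391 genes. DESeq2 called 1 of the 9, Zar1l, and 521 of all genes. The fit with the replicate number as a block, which pairs same-numbered 2-cell libraries, also called Zar1l (adjusted p = 0.027), with 117 of the 22391 genes called in place of 45. All 10 calls with cycloheximide and MG132 held in 12 of 12 alternatives, including each left-out library. For these called genes the drug libraries lay apart from the vehicle libraries, which adds no test to the calls.

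Zar1, Zar1l, Pabpn1l and Cpeb1 were the genes that rose with both cycloheximide and MG132. Zar1 had 10.5 and 18.4 CPM with DMSO, 27.8 and 25.6 with aphidicolin, 79.1 and 168 with cycloheximide and 131 and 136 with MG132. Against DMSO this was 3.11 ± 0.42 with cycloheximide (8.63-fold, adjusted p = 0.00045) and 3.20 ± 0.42 with MG132 (9.20-fold, adjusted p = 0.0011), and 0.85 ± 0.39 with aphidicolin (adjusted p = 0.49). Its drug levels were thus several times those of the vehicle embryos in every cycloheximide and MG132 library.

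Zar1l had 11.2 and 15.1 CPM with DMSO, 66.6 and 45.9 with aphidicolin, 105 and 95.3 with cycloheximide and 97.7 and 183 with MG132. The changes were 2.95 ± 0.38 with cycloheximide (adjusted p = 0.00037), 3.40 ± 0.39 with MG132 (adjusted p = 0.00051) and 2.06 ± 0.37 with aphidicolin (adjusted p = 0.057). All 6 drug libraries exceeded both vehicle libraries. The aphidicolin value passed the threshold in the fit with the replicate number as a block (2.09; adjusted p = 0.027), with DESeq2 (2.00; adjusted p = 2.9e-05), without the low-count filter, with a filter of 5 CPM, and without aphidicolin replicate 2.

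Pabpn1l had 4.38 and 15.2 CPM with DMSO, 26.3 and 18.5 with aphidicolin, 104 and 137 with cycloheximide and 52.7 and 266 with MG132. It rose by 3.64 ± 0.72 with cycloheximide (12.5-fold, adjusted p = 0.0040) and by 4.01 ± 0.74 with MG132 (16.1-fold, adjusted p = 0.0062), and gave 1.16 ± 0.67 with aphidicolin (adjusted p = 0.60). Its replicates differed more than those of Zar1 in both the vehicle and the MG132 group. Cpeb1 had 34.1 and 21.1 CPM with DMSO, 40.6 and 39.6 with aphidicolin, 117 and 195 with cycloheximide and 110.1 and 114 with MG132. It rose by 2.51 ± 0.34 with cycloheximide (adjusted p = 0.00050) and by 2.01 ± 0.34 with MG132 (adjusted p = 0.0039), and gave 0.50 ± 0.33 with aphidicolin (adjusted p = 0.65).

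Ybx2 and Zfp36l2 moved down with cycloheximide. Ybx2 had 32.3 and 51.1 CPM with DMSO, 33.9 and 62.4 with aphidicolin, 6.50 and 9.62 with cycloheximide and 14.2 and 32.5 with MG132. It fell by 2.36 ± 0.47 with cycloheximide (5.13-fold, adjusted p = 0.0042); MG132 gave -0.85 ± 0.45 (adjusted p = 0.27). Zfp36l2 had 10.2 and 4.45 CPM with DMSO, 5.29 and 3.88 with aphidicolin, 0.877 and 0.687 with cycloheximide and 4.08 and 5.55 with MG132. It fell by 3.20 ± 0.72 with cycloheximide (9.20-fold, adjusted p = 0.0080), with 39 counts over both libraries against 469; MG132 gave -0.62 ± 0.65 (adjusted p = 0.62). These are the 2 genes of the 9 whose values at 2 cells stood above those of MII oocytes.

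The 3 deadenylase genes were not called with any drug at 2 cells. Btg4 had 5949 and 6093 CPM with aphidicolin, 9200.0 and 8478 with cycloheximide and 5129 and 4440.4 with MG132, against 6176 and 7346 with DMSO; its values with cycloheximide (0.40 ± 0.26, adjusted p = 0.27) and MG132 (-0.51 ± 0.26, adjusted p = 0.25) lay on opposite sides of the vehicle without overlap. Cnot7 gave 0.35 ± 0.26 with cycloheximide (adjusted p = 0.35) and -0.69 ± 0.26 with MG132 (adjusted p = 0.13), where DESeq2 called it lower (-0.81; adjusted p = 0.014). Cnot6l stayed between -0.27 and 0.20 with the 3 drugs, adjusted p at least 0.66. Beside these changes, the 8 oocyte markers summed to 20250 to 30210 CPM with cycloheximide, 5853 to 8589 with MG132, 4682 to 6375 with aphidicolin and 4138 to 4640 with DMSO, and the 6 markers of the 2-cell stage to 70.0 to 116, 192 to 226, 227 to 330 and 894 to 1218 CPM. Repeats took 8.81% to 12.7% of the counts with cycloheximide and 19.9% to 20.8% with DMSO. The part of these values in the changes of the 9 genes was not tested.

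**Figure D3:**
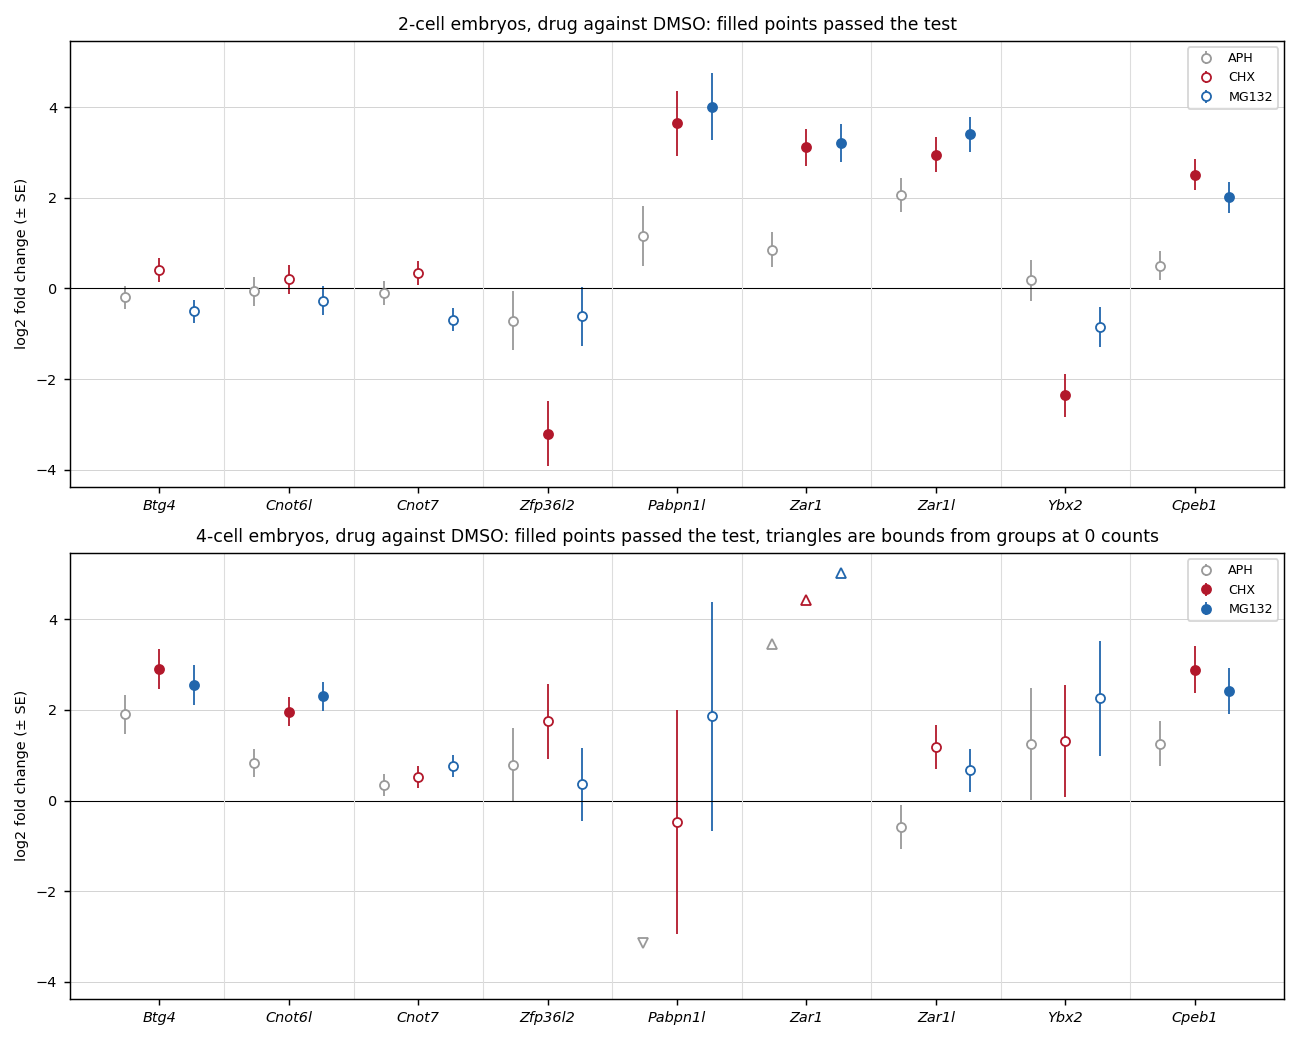
Log2 fold change against DMSO with standard error for the 9 genes at 2 cells (upper panel) and 4 cells (lower panel), by drug (APH aphidicolin, CHX cycloheximide); filled points are called, and a triangle marks a bound for a group at 0 counts. Zar1, Zar1l, Pabpn1l and Cpeb1 are called higher with cycloheximide and MG132 at 2 cells, and Btg4, Cnot6l and Cpeb1 at 4 cells.

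The drug groups at 2 cells were also set against MII oocytes of 8-week females, to show how far each mRNA stood from its level before fertilisation. With cycloheximide 1 of the 9 genes was called, Zar1l, which was higher, where 19.3% of all genes were called, 9.5% higher and 9.82% lower. Zar1 gave -0.43 ± 0.36 (adjusted p = 0.45), Pabpn1l -0.67 ± 0.88 (adjusted p = 0.66), Cpeb1 0.73 ± 0.40 (adjusted p = 0.23), Ybx2 0.63 ± 0.49 (adjusted p = 0.41) and Btg4 -0.35 ± 0.26 (adjusted p = 0.38). All of these except Btg4 overlapped the MII values, and a p that misses the threshold does not show that they were equal; without MII 8-week replicate 1 Cpeb1 was called higher (1.47; adjusted p = 0.034). Zar1l exceeded its MII level, 38.9 and 28.3 CPM, with 105 and 95.3 CPM (1.59 ± 0.35, adjusted p = 0.0050), a call lost without MII 8-week replicate 2 and in the fit of these groups alone, which called 0.

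With MG132, 4 of the 9 genes were called against MII oocytes, 2 in each direction, where 16% of all genes were called, 8.46% higher and 7.5% lower. Zar1l (2.07 ± 0.35, adjusted p = 0.0014) and Ybx2 (2.15 ± 0.50, adjusted p = 0.0091) were higher, and Btg4 (-1.24 ± 0.26, adjusted p = 0.0050) and Cnot7 (-1.51 ± 0.27, adjusted p = 0.0019) lower. Ybx2 lost its call without MII 8-week replicate 1 or MG132 replicate 2, Btg4 without MG132 replicate 2, with library totals and in a fit of these groups alone, and Cnot7 with library totals. Zar1 (-0.32 ± 0.36, adjusted p = 0.62) and Cpeb1 (0.24 ± 0.40, adjusted p = 0.76) were not called. With aphidicolin 6 of the 9 were called, 1 higher and 5 lower, where 19.5% were called, 10.1% higher and 9.43% lower. Zar1 (-2.65 ± 0.39, adjusted p = 0.00036) and Ybx2 (3.19 ± 0.52, adjusted p = 0.00077) held in 12 of 12 alternatives. Pabpn1l (-3.12 ± 0.95), Cpeb1 (-1.25 ± 0.41), Btg4 (-0.92 ± 0.26) and Cnot7 (-0.91 ± 0.27), with adjusted p of 0.022 to 0.044, each lost their call without either aphidicolin library, with library totals and in a fit of these groups alone. Without MII 8-week replicate 2 the calls of Pabpn1l, Btg4 and Cnot7 were lost, and without MII 8-week replicate 1 that of Cpeb1. Pabpn1l also lost its call with the replicate block, and Cnot7 without the low-count filter.

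**Figure D4:**
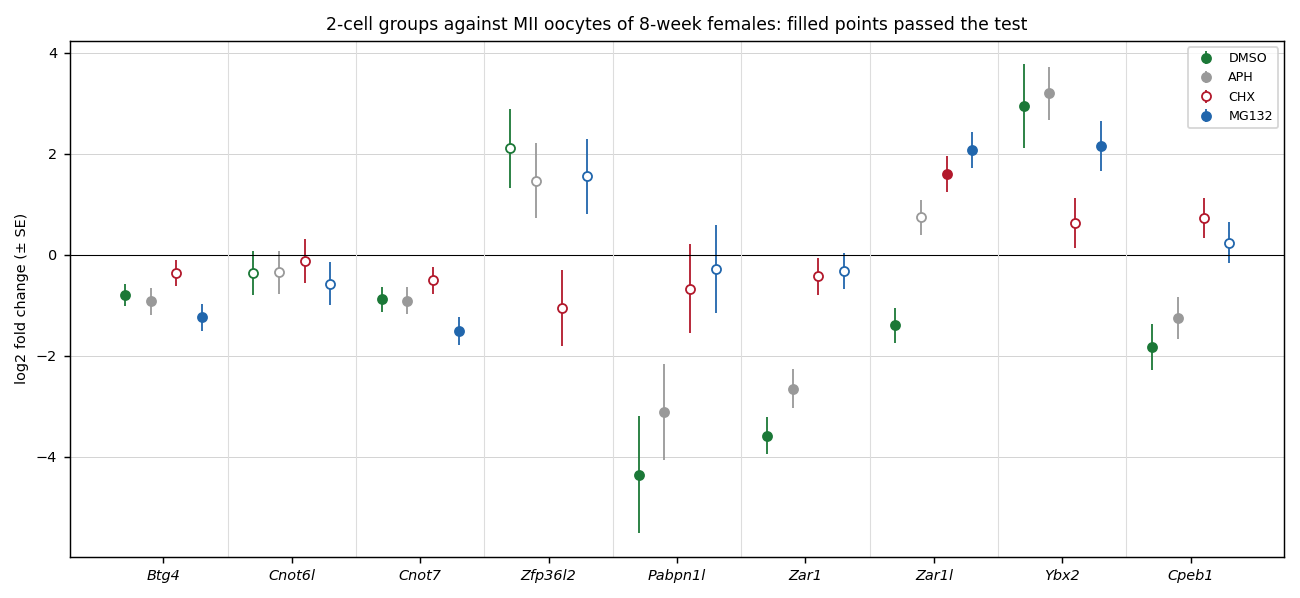
Log2 fold change with standard error of the 9 genes in vehicle, aphidicolin, cycloheximide and MG132 2-cell embryos against MII oocytes of 8-week females; filled points are called. Zar1 is low with vehicle (-3.58) and aphidicolin (-2.65) and near 0 with cycloheximide (-0.43) and MG132 (-0.32).

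At the 4-cell stage the deadenylase genes Btg4 and Cnot6l, and with them Cpeb1, were the genes called higher with cycloheximide and with MG132. Each of these drugs gave 3 called genes of the 9, all higher, where 19% of all genes were called with cycloheximide (8.77% higher and 10.3% lower, median 0.44) and 7.38% with MG132 (3.06% higher and 4.33% lower). With aphidicolin 0 of the 9 were called and 0% of the 22520 genes tested; 4 of the 9 and 1846 of all genes had an unadjusted p under 0.05, and DESeq2 called 1 of the 9 and 224 of all genes. The DMSO libraries are again shared.

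Btg4 had 27.0 and 23.9 CPM with DMSO, 51.6 and 152 with aphidicolin, 182 in each cycloheximide library, and 195 and 135 with MG132. The changes were 2.90 ± 0.44 with cycloheximide (7.48-fold, adjusted p = 0.0032), 2.55 ± 0.44 with MG132 (5.87-fold, adjusted p = 0.014) and 1.90 ± 0.43 with aphidicolin (adjusted p = 0.52; 1.85 and 0.0064 with DESeq2). All 6 drug libraries exceeded the vehicle libraries and stayed far below the 2-cell level of 4440.4 CPM or more. The MG132 call was lost without DMSO replicate 2 (adjusted p = 0.055).

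Cnot6l had 22.0 and 18.6 CPM with DMSO, 33.6 and 42.3 with aphidicolin, 86.7 and 64.7 with cycloheximide and 141 and 81.4 with MG132. It rose by 1.96 ± 0.32 with cycloheximide (adjusted p = 0.0040) and by 2.30 ± 0.32 with MG132 (adjusted p = 0.0072), both kept in 12 of 12 alternatives. Cpeb1 had 1.42 and 2.01 CPM with DMSO, 4.14 and 4.53 with aphidicolin, 12.7 and 11.6 with cycloheximide and 12.4 and 8.02 with MG132. It rose by 2.88 ± 0.52 with cycloheximide (adjusted p = 0.0059) and by 2.42 ± 0.51 with MG132 (adjusted p = 0.025). Every drug library exceeded both vehicle libraries for both genes. The Cpeb1 call was lost with cycloheximide without DMSO replicate 1 (adjusted p = 0.058), and with MG132 without either DMSO library or MG132 replicate 1.

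The other 6 genes were not called at 4 cells in the main test. Zar1l had 6.93 and 6.02 CPM with DMSO, 9.35 and 18.9 with cycloheximide and 11.6 and 10.9 with MG132. By edgeR it was 2.27-fold higher with cycloheximide (adjusted p = 0.12) and 1.59-fold with MG132 (adjusted p = 0.43). Ybx2 had 1.80 and 0.111 CPM with DMSO, 2.54 and 2.00 with cycloheximide and 8.46 and 1.78 with MG132. By edgeR it was 2.50-fold (adjusted p = 0.47) and 4.77-fold higher (adjusted p = 0.31). Cnot7 had 85.3 and 69.2 CPM with DMSO, 113 and 99.1 with cycloheximide (0.52 ± 0.24, adjusted p = 0.15) and 140.3 and 145 with MG132 (0.76 ± 0.24, adjusted p = 0.092). It was called higher with cycloheximide under library totals (0.99; adjusted p = 0.029), and with MG132 by DESeq2 (0.75; adjusted p = 0.024) and with a filter of 5 CPM. Zfp36l2 had 12.0 and 13.1 CPM with DMSO and 36.5 and 44.3 with cycloheximide (1.75 ± 0.82, adjusted p = 0.16), without overlap, while aphidicolin (38.8 and 5.98) and MG132 (28.7 and 7.63) libraries lay on both sides of the vehicle. The cycloheximide value of Zfp36l2 was called without the low-count filter (1.72; adjusted p = 0.0017) and in the fit of these groups alone (1.66; adjusted p = 0.0091). Zar1 had 0 counts with DMSO and 82 with cycloheximide, at least 21.5-fold higher when DMSO is set to 3 counts over the group, with 40 counts with aphidicolin (at least 11-fold). With MG132 1 library held all 100 counts and the other 0. None of the 3 Zar1 differences was called by edgeR; DESeq2 called those with cycloheximide (adjusted p = 0.018) and MG132 (adjusted p = 0.021). Pabpn1l was at 0 in 1 vehicle library, both aphidicolin libraries and 1 MG132 library, and at 0.817 CPM or less in all others but MG132 replicate 1, with 3.53 CPM. Beside these values, the oocyte markers summed to 146 to 154 CPM with cycloheximide, 213 to 403 with MG132 and 132 to 136 with DMSO. The 6 markers of the 2-cell stage, of which at least 5 passed 1 CPM in each of these libraries, summed to 244 to 553 CPM with cycloheximide, 196 to 209 with MG132 and 38.3 to 100.5 with DMSO. Of the 4 blood markers, summing to 201 to 216 CPM with cycloheximide, 5.43 to 5.77 with MG132 and 23.0 to 42.3 with DMSO, Hba-a1 alone passed 1 CPM. Mitochondrial genes took 21.7% to 23.1% of gene counts with cycloheximide and 11.4% to 14.6% with DMSO. The cumulus and granulosa list summed to 21.3 to 27.9 CPM with cycloheximide and 379 to 412 with DMSO, with Amh, Fshr, Inhba and Ptx3 at 0 in all 4 libraries. Gja1 alone made up most of the DMSO sum, with 394 and 351 CPM against 0.897 and 2.05 CPM with cycloheximide, while Foxl2 and Has2 were at 0 with DMSO and above 0 with cycloheximide. The part of these values was not tested.

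The drug effects at 4 cells were tested against those at 2 cells in 1 fit of 18 embryo libraries. With cycloheximide 5 of the 9 genes differed, where 20.9% of all genes did, 14.3% upward and 6.65% downward, and the median difference was 1.25. The difference was upward for Btg4, Cnot6l, Zfp36l2 and Ybx2 and downward for Zar1l. Zfp36l2 and Ybx2 were called lower at 2 cells (-3.20 and -2.36) and not called at 4 cells (1.75 and 1.32). With MG132 4 of the 9 differed, where 11.2% did, 6.73% upward and 4.49% downward, and the median was 0.42. Here it was upward for Btg4, Cnot6l and Cnot7 and downward for Zar1l, and Cnot7 itself was called at neither stage. With aphidicolin 0 of the 9 and 0% of the 27201 genes tested differed. At an unadjusted p under 0.05 there were 4 of the 9 and 2892 of all genes. DESeq2 called 2 of the 9, Btg4 and Zar1l, and 538 of all genes. For Cpeb1, which rose with cycloheximide and MG132 at both stages, the differences were 0.43 ± 0.50 (adjusted p = 0.62) and 0.38 ± 0.50 (adjusted p = 0.74).

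The effect of the histone mutant was compared between H3.3K4M and H3.3WT growing oocytes. Pabpn1l, Zar1 and Ybx2 were higher and Btg4 lower with H3.3K4M, 4 of the 9 genes, where 22.4% of all genes were called, 8.64% higher and 13.7% lower. Pabpn1l had 1984 and 1975 CPM with H3.3K4M and 380.4 and 463 CPM with H3.3WT (2.21 ± 0.19, 4.64-fold, adjusted p = 7.4e-06). Zar1 had 518 and 738 CPM against 327 and 268 CPM (1.06 ± 0.20, adjusted p = 0.0020). Both calls held in 12 of 12 alternatives, and neither gene overlapped between the genotypes. Ybx2 had 52.7 and 84.1 CPM against 46.3 and 35.7 CPM (0.71 ± 0.22, adjusted p = 0.032), and lost its call without H3.3K4M replicate 2, without H3.3WT replicate 2, with a filter of 5 CPM and with library totals. Btg4 had 2830.4 and 2110.1 CPM against 3778 and 4422 CPM (-0.74 ± 0.21, adjusted p = 0.025), and lost its call without H3.3WT replicate 1 (adjusted p = 0.071) or replicate 2 (adjusted p = 0.21) and with the replicate block (adjusted p = 0.062).

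The other 5 genes were not called with H3.3K4M. Cnot6l (-0.52 ± 0.22, adjusted p = 0.11) and Cnot7 (-0.46 ± 0.17, adjusted p = 0.072), the partners of Btg4 in the complex, had lower mean values as well, with overlap for Cnot6l and none for Cnot7. Zar1l had 709.8 and 598 CPM against 571 and 722 CPM (0.00 ± 0.19, adjusted p = 0.997). Cpeb1 had 370.2 and 405 CPM against 477 and 374 CPM (-0.15 ± 0.17, adjusted p = 0.59). Zfp36l2 gave 0.55 ± 0.30 (adjusted p = 0.22) and was called higher without H3.3K4M replicate 1 (0.80) or H3.3WT replicate 1 (1.17), and Cnot6l lower without H3.3K4M replicate 2 (-0.74) or H3.3WT replicate 2 (-0.76). The oocyte markers summed to 66890 to 77040 CPM with H3.3K4M and 66190 to 75420 CPM with H3.3WT. The 6 markers of the 2-cell stage summed to 102 to 123.5 CPM with H3.3K4M and 516 to 661 CPM with H3.3WT, mostly from Tcstv1 and Tcstv3. The 12 cumulus and granulosa markers summed to at most 3.72 CPM with H3.3K4M and at least 12.6 CPM with H3.3WT, with Amh, Has2, Ptx3 and Tnfaip6 at 0 in all 4 libraries. The part of these values was not tested.

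The age of the female was compared in MII oocytes and in 2-cell embryos. In MII oocytes 0 of the 9 genes were called between 12 months and 8 weeks, where 0.802% of all genes were, 0.272% higher and 0.53% lower. Pabpn1l and Zar1, 2 of the 9, had an unadjusted p under 0.05, as did 2305 of all 15083 genes. DESeq2 called 0 of the 9 and 1009 of all genes. Pabpn1l had 1257 and 1284 CPM at 12 months and 33.8 and 346 CPM at 8 weeks, so that both older libraries were above both younger ones, but the spread of the younger pair left 2.65 ± 0.99 (adjusted p = 0.28). Its value was 1.77 without MII 8-week replicate 1 and 5.23 without replicate 2. In these fits the remaining 8-week library is assumed to vary like the 12-month group, so only the values are given. Without replicate 2 Cnot6l stood at -0.92. Zar1 had 274 CPM in each 12-month library against 195 and 141 CPM (0.67 ± 0.26, adjusted p = 0.30), and Ybx2 9.74 and 16.1 CPM against 3.63 and 6.83 CPM (1.24 ± 0.51, adjusted p = 0.33). Btg4 was close to level (-0.04 ± 0.27, adjusted p = 0.97).

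In 2-cell embryos 0 of the 9 genes were called between untreated embryos of 12-month females and vehicle embryos of 6- to 8-week females. Of all genes 1.21% were called, 0.469% higher and 0.746% lower. DESeq2 called 0 of the 9 and 1047 of all genes. At an unadjusted p under 0.05 there were 3 of the 9 and 3165 of all 22391 genes. These 3 were Pabpn1l (33.1 and 22.6 CPM against 4.38 and 15.2; 1.51 ± 0.67, adjusted p = 0.34), Zar1 (27.7 and 37.7 against 10.5 and 18.4; 1.18 ± 0.39, adjusted p = 0.20) and Zar1l (23.8 and 31.4 against 11.2 and 15.1; 1.06 ± 0.36, adjusted p = 0.21). In each the 12-month libraries were both above the vehicle libraries, which adds no test, since these 3 were picked by their p. Cpeb1 had 35.5 CPM in each 12-month library against 34.1 and 21.1 CPM (0.36 ± 0.33, adjusted p = 0.68). The oocyte markers summed to 8512 to 8677 CPM at 12 months and 4138 to 4640 CPM with vehicle, and their part was not tested.

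In AB2.2 stem cells 5 of the 9 genes, Cnot6l, Cnot7, Zfp36l2, Ybx2 and Cpeb1, passed the filter on low counts, and the other 4 were not tested. With cycloheximide 2 of these 5 were called, both higher, where 27% of all genes were called, 13.6% higher and 13.4% lower. With MG132 1 was called, higher, where 3.24% were called, 1.9% higher and 1.34% lower. Ybx2 had 4.59 and 4.09 CPM with DMSO, 12.8 and 12.2 with cycloheximide (1.45 ± 0.13, 2.73-fold, adjusted p = 0.00066) and 8.12 and 8.98 with MG132 (0.93 ± 0.14, 1.90-fold, adjusted p = 0.021). Cpeb1 had 3.13 and 2.47 CPM with DMSO, 5.98 and 5.32 with cycloheximide (0.93 ± 0.17, adjusted p = 0.0073) and 4.40 and 4.41 with MG132 (0.60 ± 0.17, adjusted p = 0.098). No drug library of either gene overlapped the vehicle libraries. The direction of Ybx2 with cycloheximide was upward here and downward at 2 cells; these are fits of different systems and kits, and the difference was not tested. Ybx2 lost its MG132 call without either DMSO library and in a fit of these groups alone, and Cpeb1 its cycloheximide call without cycloheximide replicate 1 or DMSO replicate 2.

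Zfp36l2 had 23.6 and 23.8 CPM with DMSO, 17.2 and 16.8 with cycloheximide (-0.56 ± 0.23, adjusted p = 0.11; called in the fit of these groups alone) and 17.5 and 31.2 with MG132 (-0.02 ± 0.23, adjusted p = 0.97). The MG132 libraries lay on either side of the vehicle, and leaving out 1 or the other gave a called value in opposite directions, 0.37 without replicate 1 and -0.46 without replicate 2. In those fits Cpeb1 was called as well (0.63 in each), and without MG132 replicate 2 Cnot6l too (0.44). These fits called 9037 of 19453 genes without replicate 1 and 4813 of 19317 without replicate 2, against 606 of 18696 with both, so the added calls came with many more calls over all genes. Cnot7 had 26.7 to 32.6 CPM and Cnot6l 6.60 to 10.9 CPM over the 6 libraries. Markers of fibroblasts or feeder cells summed to 576.5 to 700.5 CPM with DMSO, 309 to 311 with cycloheximide and 314 to 318 with MG132; their part was not tested.

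The wider machinery was followed through 63 other genes of deadenylation, RNA-binding decay, uridylation, decapping, storage and tail extension. From growing to MII oocyte 25 of the 63 were higher and 15 lower, where 61.8% of all genes were called, 27.4% higher and 34.4% lower; among them were Upf1, the helicase of nonsense-mediated decay (6.30 ± 0.36), Pan3, a subunit of the other main deadenylase (5.79 ± 0.26), Cnot10, a CCR4-NOT subunit (-5.77 ± 0.37), and Patl2, an oocyte RNA-binding protein (-4.75 ± 0.46). By role, the 17 other deadenylases and adaptors gave 7 higher and 5 lower (median -0.28) and the 12 other storage genes 5 higher and 4 lower (median 0.73), so neither list moved in 1 direction as the members of its role among the 9 did. From MII to 2 cells 9 were higher and 15 lower, where 10.1% of all genes were called in each direction, with Lsm14b, a storage factor, at -4.12 ± 0.34, Tob1, a BTG-family relative of Btg4, at 4.05 ± 0.64, Upf1 at -3.82 ± 0.39 and the CCR4-NOT subunit gene Cnot11 at -2.92 ± 0.37. From 2 to 4 cells 14 were higher and 25 lower, where 19.6% of all genes were higher and 29.4% lower, with Eif4e1b, the oocyte form of the cap-binding protein (-7.41 ± 0.70), and the tail-binding Pabpc1l (-6.78 ± 0.996) lower, the germ-cell RNA-binding gene Dazl lower (-5.26 ± 0.28) and the somatic tail-binding Pabpc1 higher (4.30 ± 0.57). The medians of the 63 genes were 0.04, 0.05 and -0.48 in these 3 steps, beside -0.26, 0.33 and -0.57 over all genes.

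With cycloheximide at 2 cells 17 of the 63 were higher and 7 lower (median 0.17, beside -0.26 over all genes), where 11% of all genes were higher and 13% lower. They included Upf1 (4.49 ± 0.46) and Dcp1a, a decapping cofactor (3.60 ± 0.33), upward, and Tob1 (-3.47 ± 0.57) and Lsm1, of the decapping ring (-3.19 ± 0.33), downward. With MG132 at 2 cells 9 were higher and 3 lower, where 5.1% and 4.68% of all genes were, with Patl2 (3.37 ± 0.68) and the poly(A) polymerase gene Papolg (2.28 ± 0.54) upward and Tob1 (-3.01 ± 0.55) and Pabpn1, the nuclear relative of Pabpn1l (-2.55 ± 0.51), downward. At 4 cells, of 62 tested, 12 were higher and 15 lower with cycloheximide, where 8.77% and 10.3% of all genes were, and 11 higher and 1 lower with MG132, where 3.06% and 4.33% were. The BTG-family genes Btg2 (4.84 ± 0.47 with cycloheximide, 3.92 ± 0.45 with MG132) and Tob2 (2.96 ± 0.57 and 3.21 ± 0.57) were higher with both drugs, as was the Zfp36l2 relative Zfp36l1 with cycloheximide (6.87 ± 1.16). With aphidicolin at either stage, and between ages in MII oocytes, 0 of these genes were called by edgeR. With H3.3K4M 1 was higher, Tob1 (0.62 ± 0.18), and 5 of 62 lower, led by Dcp1a (-0.69 ± 0.17), where 8.64% and 13.7% of all genes were. In stem cells, of 62 tested, cycloheximide gave 4 higher and 8 lower, where 13.6% and 13.4% of all genes were, and MG132 3 higher and 1 lower, where 1.9% and 1.34% were, with Dazl higher in both (1.05 ± 0.11 and 1.06 ± 0.11).

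Across the 13 oocyte and embryo groups, the mean log2(CPM + 1) levels of the 9 genes were compared by Pearson's correlation. These correlations describe 13 group means that share stage and library method, and carry no test. Zar1 followed Pabpn1l (r = 0.984), Cpeb1 (0.959) and Zar1l (0.841), and Cnot6l followed Btg4 (0.924) and Cnot7 (0.918). Btg4 stood between these sets, with 0.838 to Zar1, 0.782 to Cpeb1, 0.768 to Pabpn1l and 0.755 to Cnot7. Ybx2 had 0.717 with Btg4, 0.711 with Cpeb1 and 0.529 with Cnot6l. Cnot7 and Zar1l were unrelated (-0.0722). Zfp36l2 ran against each of the other 8, from -0.858 with Cnot7 to -0.207 with Zar1l. Among 10075 genes with at least 10 CPM in a group, the nearest to each by the same measure were Obox5, Zc3h6 and Arhgap20os for Btg4 (0.990 to 0.989), Cd36, Rab14 and Hmgcll1 for Cnot6l (0.987 to 0.984), and Rictor, Ptprq and Pan3 for Cnot7 (0.988 to 0.984). For Zfp36l2 they were Thoc5, Usp20 and Cdkn3 (0.972 to 0.954), for Pabpn1l Plat, Fbxw14 and Lpcat1 (0.974 to 0.968), for Zar1 Lpcat1, Fbxw28 and Fbxw22 (0.989 to 0.984), and for Zar1l Adgrg1, Cage1 and C2cd2 (0.982 to 0.969). For Ybx2 they were Csrnp2, Bcl2l1 and Samd10 (0.972 to 0.970), and for Cpeb1 Lrig1, Aass and Tsc22d1 (0.980 to 0.976). Lpcat1 was near both Zar1 and Pabpn1l. The names depend on the measure, since 2 of the 27 recurred with Spearman's correlation and 16 with a pseudocount of 0.1.

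Positions of the 9 genes on GRCm38 (mm10), from the annotation, are as follows. On chromosome 5 lie Zar1 (chr5:72576806-72581254), Cnot6l (chr5:96070333-96164171) and Zar1l (chr5:150507055-150518164), all on the minus strand. On chromosome 8 lie Cnot7 (chr8:40492540-40515847) and Pabpn1l (chr8:122619471-122622739), also on the minus strand. Cpeb1 (chr7:81347026-81455465) and Zfp36l2 (chr17:84183931-84187947) lie on the minus strand, and Btg4 (chr9:51060901-51119875) and Ybx2 (chr11:69935796-69941605) on the plus strand. Exons of Cnot7 share 247 bases with Zdhhc2 and those of Zfp36l2 105 bases with AC132455.1, each on the opposite strand, and the use of strand in counting is not given in the sources used here, so reads from these stretches cannot be assigned to 1 of the pair. The other 7 genes share no exon bases with another annotated gene.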

How the data were processed

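RNA was measured in 32 mouse libraries, 2 in each of 16 groups taken from the labels. The authors deposited 1 table per library of read counts (whole numbers, not normalized) for 55335 genes and 1153 repeat subfamilies. The submitters' processing notes name cutadapt 1.16, STAR and mm10. Which program counted the reads, on which annotation, with or without strand, and what became of reads that map to several places is not given in the sources used here. Of the gene identifiers, 55154 matched GENCODE M21 without their version number and 54587 with it. That reference also supplied the sequences.

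Each stage was fitted alone with edgeR 4.0.16 in R 4.3.3 (filterByExpr with a minimum count of 10 and total of 15, TMM factors over genes and repeats, robust quasi-likelihood F-test). Steps between stages used fits of the stages concerned, and differences between stages a fit of the embryo libraries. The Benjamini-Hochberg adjustment ran over all genes tested, with a threshold of 0.05. Where all libraries of a group were at 0, folds are bounds that take 3 counts over both libraries together; such bounds reflect counting error alone, since reads carry no molecular identifiers and are not independent molecules. The 9 genes and all gene lists were chosen with earlier results of these data known. All 9 are named, with up to 4 called genes of the 63-gene list per comparison, those of largest change with a group mean of at least 10 CPM, and the 3 genes of highest correlation with each over 13 group means; 1 gene and 1 sequence are not reported here. Each comparison was also run with DESeq2 1.42.0 (its size factors, and its Wald test), without the low-count filter, with at least 5 CPM in 2 or more libraries, the replicate number as a block, genes alone for library size, only the compared groups in the fit, and each library left out in turn. Library totals without scaling factors and a crossed block were added after the data were seen. At 2 cells, drug and vehicle libraries with the same number deviated from their group means together (correlations of 0.186 to 0.404 over 6 pairs and 9676 genes). The labels name no shared day or batch, so pairing is not established. At 0.404 stood aphidicolin with MG132, whose replicate 1 libraries had the lowest totals, 14313718 and 14505195 counts. Pairing and depth cannot be told apart there. The values given are from the fit without the block, and the block is named beside each result whose call it changed. The edgeR script was tested on simulated data: for cycloheximide against vehicle at 2 cells, with 20835 genes, it recovered 1% of 2-fold and 91% of 8-fold changes, with 6 false calls, so small changes would mostly be missed.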

Additional observations from a re-analysis of the deposited data

Results flagged for a closer look

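The effect of a drug against DMSO differed between 4-cell and 2-cell embryos, by a test of the difference itself (edgeR, 18 embryo libraries), in 9 results, given as 4-cell minus 2-cell log2 fold change. With cycloheximide Btg4 differed by 2.55 ± 0.50 (adjusted p = 0.0019, 2.90 at 4 cells and 0.40 at 2 cells), Cnot6l by 1.82 ± 0.44 (adjusted p = 0.0080, 1.96 and 0.20) and Zfp36l2 by 5.0 ± 1.17 (adjusted p = 0.0066, 1.75 and -3.20), each kept in 16 of 16 alternatives. Ybx2 differed by 3.73 ± 1.24 (adjusted p = 0.042, 1.32 and -2.36) and Zar1l by -1.72 ± 0.58 (adjusted p = 0.046, 1.18 and 2.95). Ybx2 lost its call when any of the 8 libraries except 4-cell DMSO replicate 1 was left out, and Zar1l when any except 4-cell cycloheximide replicate 2 was. The median difference of all genes was 1.25, so Zar1l lay below it, and Cnot6l, Btg4, Ybx2 and Zfp36l2 above it.

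With MG132 Btg4 differed by 3.04 ± 0.50 (adjusted p = 0.0012, 2.55 at 4 cells and -0.51 at 2 cells) and Cnot6l by 2.55 ± 0.44 (adjusted p = 0.0017, 2.30 and -0.27), both kept in 16 of 16 alternatives. Cnot7 differed by 1.42 ± 0.35 (adjusted p = 0.014, 0.76 and -0.69), a call lost without DMSO replicate 2 of either stage, without either 2-cell MG132 library or without 4-cell MG132 replicate 2. Zar1l differed by -2.79 ± 0.59 (adjusted p = 0.0057, 0.66 and 3.40), lost without 2-cell MG132 replicate 2 (adjusted p = 0.052). The median of all genes was 0.42. With vehicle, these genes except Zfp36l2 had lower levels at 4 cells than at 2 cells. Per kilobase, vehicle 4-cell levels of Cnot7, Btg4 and Zar1l still stood at percentiles 88.9, 86.7 and 84.0 of genes with a count. Those of Zfp36l2, Cnot6l and Ybx2 stood at 76.2, 68.6 and 47.4. The part of the baseline level in the differences was not tested.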

How the results depend on the processing

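Over the alternatives, 736 of 852 called values of single genes kept their call, 115 lost it and 1 turned, with 66 calls gained. Btg4 from MII oocytes of 8-week females to vehicle 2-cell embryos turned to 0.024 (adjusted p = 0.95) with library totals, where the median of all genes moved from 0.33 to 1.14, and Zfp36l2 with MG132 in stem cells went from -0.02 to -0.46 or 0.37 when 1 or the other MG132 library was left out. Both are limits of direction: the first depends on scaling, the second on which MG132 library is used, and the cause was not tested. The lowest library total was 14313718 counts, so the number of replicates, 2, limits the precision more than counting does, except for genes near 0.

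Counts of the 9 genes called moved as follows. The replicate block gave 1 with aphidicolin at 2 cells (Zar1l) in place of 0. There same-numbered drug and vehicle libraries deviated together, with a lowest correlation of 0.186. Elsewhere the correlations were lower (-0.0421 to 0.111 at 4 cells and 0.0473 to 0.167 in stem cells), without a clear line between the stages. The block gave 3 in place of 4 with H3.3K4M, 7 in place of 8 from 2 to 4 cells, 5 in place of 6 for aphidicolin against MII, and changed no other count. Over all genes it called 117 with aphidicolin at 2 cells and 2822, 10566 and 4736 in these 3. The main fits called 45, 3444, 11237 and 4455. With the crossed block, added since growing and MII oocytes gave -0.390 and -0.131, the H3.3K4M count was 7. That fit called 5727 of 15386 genes, against 3444 in the main fit. DESeq2 gave 1 with aphidicolin at 2 cells and 1 at 4 cells (main 0), 5 with MG132 at 4 cells (3) and 2 for the aphidicolin difference (0). Over all genes these tests called 521, 224, 3843 and 538, against 45, 0, 1663 and 0 in the main fits. Without the low-count filter there were 1 with aphidicolin at each stage, 1 between ages at 2 cells (0), 5 with cycloheximide at 4 cells (3) and 4 for the aphidicolin difference (0). Over all genes those fits called 615 and 347 with aphidicolin, 962 between ages, 6024 with cycloheximide and 849 for the difference. The main fits called 45, 0, 272, 4290 and 0. The filter of 5 CPM gave 1 with aphidicolin at 2 cells, with 93 of 10903 genes called against 45 of 22391 in the main fit. From MII to vehicle 2-cell embryos (7) the count was 4 with genes-only sizes, 4 with library totals and 4 with only the compared groups. Over all genes these fits called 4391, 5420 and 4541, against 4641 in the main fit. Fits of the compared groups alone also gave 4 with cycloheximide (2) and 0 with MG132 (1) in stem cells, 5 with cycloheximide at 4 cells, 4 for the 12-month step (2), 2 for aphidicolin and 0 for cycloheximide against MII (6 and 1), and 3 for the cycloheximide difference (5). In that order they called 10640, 15, 7167, 5722, 3547, 2089 and 4919 of all genes. The main fits called 5042, 606, 4290, 2884, 4455, 4413 and 5688.

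Leaving out 1 library gave 3 to 5 with H3.3K4M, 0 to 2 between ages in MII oocytes, 1 to 2 with cycloheximide and 0 to 4 with MG132 in stem cells. At 2 cells it gave 0 to 1 with aphidicolin and the same 6 and 4 with cycloheximide and MG132; at 4 cells 2 to 3 with cycloheximide and 1 to 4 with MG132. The steps gave 7 to 9 from growing to MII oocyte, 2 to 4 from MII to 2 cells, 1 to 2 at 12 months and 6 to 8 from 2 to 4 cells. Against MII the ranges were 2 to 5 with aphidicolin, 0 to 2 with cycloheximide and 2 to 4 with MG132, and for the differences 0 to 1 with aphidicolin, 3 to 4 with cycloheximide and 2 to 5 with MG132.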
